A study of Homo sapiens with 3 samples.

Results

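Partly methylated regions were defined here as 100 kb bins of the autosomes in which CpGs outside windows dense in covered CpGs had a mean methylation level below 55%. A CpG entered when each of the 3 libraries covered it with 10 reads or more and when it lay in a fixed 1 kb window that held 9 or fewer such CpGs (a sparse window). Only covered CpGs were counted, so a CpG-dense stretch with few of them could pass as sparse. Their levels were averaged per fixed 100 kb bin, and bins with at least 20 of them were kept. Of 15050 bins that could be judged in this way, 5564 (36.97%) were members, 4702 lay between 55% and 75%, and 4784 had 75% or more. The last group served as the highly methylated comparison. Counted as whole bins, members spanned 556 Mb of the GRCh37 (hg19) build named in the submitters' processing notes. Levels were read only at captured CpGs, which need not stand for the rest of a bin. The levels of all 3 libraries chose the members, so the gap in level between members and highly methylated bins is a description and was not tested.

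The libraries came from Hep3B, a human hepatocellular carcinoma cell line. Parental cells gave 1 library. The other 2 libraries came from SOX4 knockout lines, 1 each, which the same group had made earlier with CRISPR/Cas9 and which were kept under puromycin, and which carry the numbers 1 and 2 in their labels. Genomic DNA (500 ng) was enriched with Illumina EPIC capture probes, treated with bisulfite and sequenced, so that the share of reads keeping a C at a CpG gave its methylation level. Reads over CpGs numbered 104702738 in parental cells, 96987706 in line 1 and 133170621 in line 2. With 1 parental library no difference between conditions could be tested. Whether the gene was disrupted was not checked here, and differences between the lines cannot be told apart from differences between the cultures they were taken from.

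Large stretches of reduced, uneven methylation are known as partially methylated domains. They are known from cancer cells and from cells with a long record of divisions, they tend to be poor in active genes and late in replication, and they are often found at the nuclear periphery. Within them, isolated CpGs with A or T on both sides are known to keep methylation least well when DNA is copied. In the rest of the genome most CpGs outside CpG islands are highly methylated. SOX4 encodes a DNA-binding protein that regulates transcription.

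Sequences of CpGs in member bins are shown first, because the levels described below differ with the bases and CpGs around a site. All were taken from RefSeq promoters (GRCh38.p14), are read 5′ to 3′ on the strand of the gene and lie upstream of its start. They were placed on the coordinates of the files by their CpG spacing. They were chosen after their values had been seen. The first 3 are the CpGs 114, 150 and 189 bases before the start of the long noncoding RNA gene LOC124904931, in the member bin furthest below parental in both lines, and the capitals mark the CpG that was read.
LOC124904931, A or T on 0 sides: ttgtcaaatgCGcaatgggcaa
LOC124904931, A or T on 1 side: caaagaaagtCGcaattattaa
LOC124904931, A or T on 2 sides: agtggaatttCGaaaaagtaat

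The CpG with no A or T beside it (chr20:51117233-51117254, minus strand) had a level of 95.8% in parental cells, 65.9% in line 1 and 72.5% in line 2. The CpG with A or T on 1 side (chr20:51117269-51117290) had 91.5%, 32.0% and 49.3%. The CpG with A or T on both sides (chr20:51117308-51117329) had 86.8%, 2.08% and 32.4%. These CpGs had 44 to 82 reads per library. The parental levels thus lay close together, while those of line 1 spread widely. These CpGs come from 1 bin, and their order did not hold for members as a whole. Over sparse-window CpGs in placed promoters of members, line 1 differed from parental by -6.82, -8.48 and -7.44 points. These values are for A or T on 0, 1 and 2 sides.

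The next sequences come from promoter stretches of member bins, with every CpG in capitals. CCDST, LINC02181 and CSNK2A3 are shown because their promoters were lower in both lines, and IRX4 because this stretch was not.
CCDST: CGttCGgaaacagCGaaaggaaCGgcctca
LINC02181: CGcccCGcatggcCGcaggcCGtctccatg
CSNK2A3: CGcCGccatattgtctgtgtgagcagaagg
IRX4: CGCGcacatctgacttgaCGggttCGCGCG

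Over the 4 CpGs of the CCDST stretch (chr1:152161661-152161690, plus strand) the mean level was 74.8% in parental cells, 32.6% in line 1 and 59.2% in line 2. Over the 4 CpGs of LINC02181 (chr16:87091281-87091310, plus strand) it was 66.9%, 9.23% and 30.9%. Over the 2 CpGs of CSNK2A3 (chr11:11374812-11374841, minus strand) it was 73.4%, 2.27% and 25.8%. The 6 CpGs of the IRX4 stretch (chr5:1883065-1883094, minus strand) had 72.0%, 77.7% and 77.3%, so the lines were above the parental library there. These stretches are parts of promoters and differ from the whole. The CCDST promoter had 38.4%, 20.4% and 29.6% over 23 CpGs. That of LINC02181 had 74.5%, 39.5% and 46.0% over 8 CpGs.

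The members were low in every library, but by different amounts. Their mean level was 37.1% in parental cells (SD over bins 14.8), 28.2% in line 1 (13.3) and 32.5% in line 2 (13.8), and the mean of the knockout lines was 30.3% ± 3.06 (SD, n = 2). Highly methylated bins had 84.7%, 82.0% and 83.4%. A member held a median of 41 usable CpGs, as against 42 in a highly methylated bin. When each library was judged alone, 4865 bins lay below 55% in parental cells, 6260 in line 1 and 5528 in line 2, and 4799 lay below it in all 3. The 3 members just under the threshold had means over the libraries of 54.98% to 54.999%, and the 3 bins just above it had 55.007% to 55.02%. At the upper threshold the corresponding bins had 74.993% to 74.995% and 75.003% to 75.014%, so both thresholds cut through a continuous range.

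**Figure D1:**
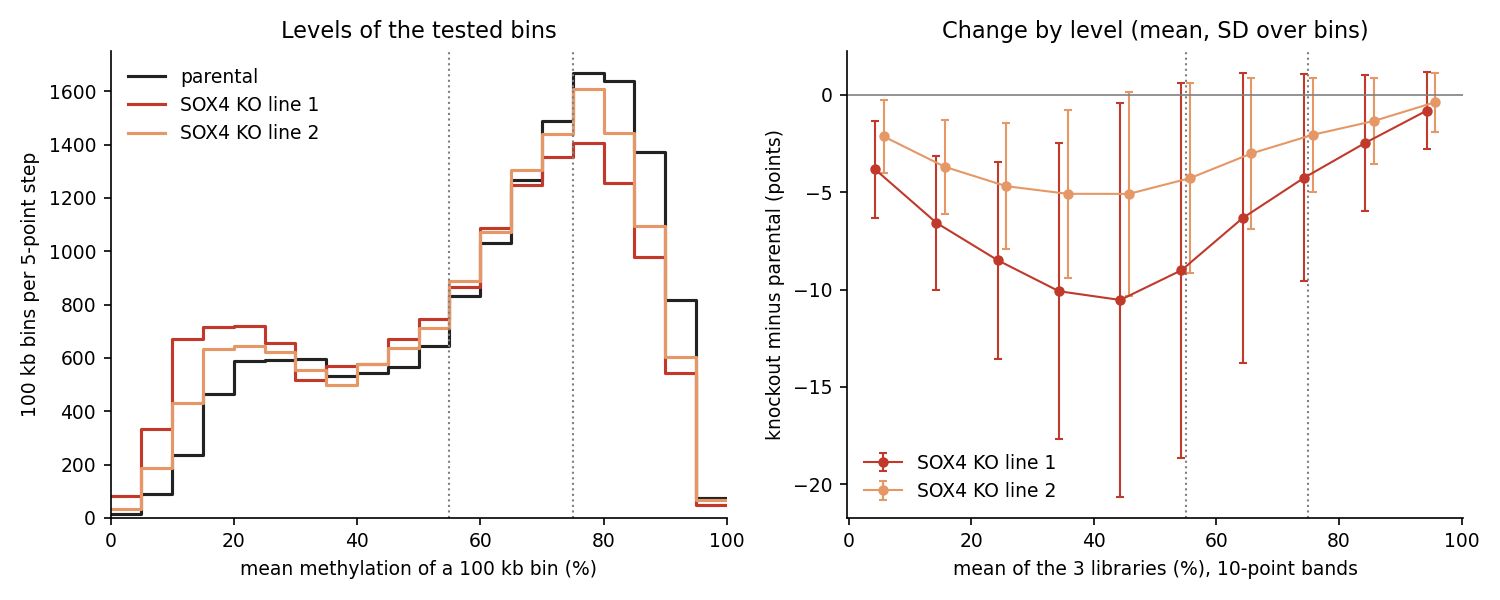
Left, number of tested 100 kb bins per 5-point step of mean methylation (percent) in the parental library and the knockout lines, with dotted lines at 55% and 75%. Right, mean difference of each knockout line from parental (percentage points, bars are the SD over bins) by 10-point band of the mean of the 3 libraries. Line 1 differed from parental by -10.54 points at 40% to 50% and by -0.82 points at 90% to 100%.

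The name "partly methylated" describes the bins better than their CpGs. Of 270561 sparse-window CpGs in members, 45.3% had a level below 20% in parental cells, 33.5% had 20% to 80% and 21.1% were above 80%. In line 1 the shares were 56.4%, 28.1% and 15.4%, and in line 2 they were 49.5%, 34.4% and 16.0%. Highly methylated bins had 15.2% of their CpGs at 20% to 80% and 79.1% above 80% in parental cells. In 2667 members (47.9%) more than 50% of the CpGs had a mean level below 20%, and 1883 members (33.8%) had a bin mean below 25%. In 1155 members (20.8%), more than 25% of the CpGs were below 20% and more than 25% were above 80%. Only 200 members had a bin mean below 10%. The set therefore held bins of mostly low CpGs and bins that mixed low and high ones. Many members met neither description.

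The levels of CpGs that the rule had not used followed the classes. CpGs of the same sparse windows with only 5 to 9 reads in the shallowest library were held out. In members, 88738 such CpGs had a mean level of 42.4% in parental cells, 34.7% in line 1 and 38.3% in line 2. In highly methylated bins, 78231 such CpGs had 80.2%, 78.2% and 79.3%. By these CpGs line 1 minus parental was -7.65 points in members and line 2 minus parental was -4.07 points, at median depths of 8 to 12 reads. In highly methylated bins the same differences were -1.99 and -0.96 points.

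On average, the knockout lines lay further below parental in members than in either other class. No test of this difference between classes was made, since the same single parental library enters both. Line 1 minus parental was -8.93 points on average (SD over bins 7.66) and line 2 minus parental was -4.61 points (SD 4.18). Bins from 55% to 75% had -6.22 and -2.97 points, and highly methylated bins had -2.66 and -1.36 points. The difference did not stop at the threshold. Bins in the band from 50% to 60%, which lies on both sides of it, had -9.01 and -4.28 points. As a share of the parental level the differences were -24.1% in line 1 and -12.4% in line 2 for members, and -3.14% and -1.60% for highly methylated bins. The lines also differed from each other in members, by -4.33 points for line 1 minus line 2, which is close in size to the difference of line 2 from parental. The counting error of a member's difference had a median of 1.48 points for line 1 and 1.42 points for line 2. The levels of both lines helped to choose the classes, so the choice of bins enters these differences. Members chosen on the parental library alone, 4865 in number, gave -7.54 and -3.94 points, and their highly methylated counterparts -4.24 and -2.14 points. The classes thus lay closer together under that choice.

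Most members differed from parental in the same direction. In 5334 members (95.9%) line 1 was below parental, in 5112 (91.9%) line 2 was, and in 5046 (90.7%) both were. Over all tested bins these shares were 87.2%, 82.8% and 78.7%. Line 2 lay between line 1 and parental in 4694 members (84.4%). It did so in 69.3% of all tested bins and in 51.9% of highly methylated bins. The difference depended on the level itself. Among members it was smallest in the emptiest bins, with -3.83 points in line 1 and -2.14 points in line 2 for the 200 bins below 10%. It was largest between 30% and 50%, at -10.09 to -10.54 points in line 1 and -5.09 points in line 2, and shrank again in bins above the threshold. Between 40% and 50% the spread over bins was widest, with an SD of 10.1 points in line 1. Since both lines were compared with the same parental library, an error in that library would appear in both.

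Differences of 10 points or more were counted next. In line 1, 1847 members (33.2%) were lower than parental by this much, and 20.5% of all tested bins were. In line 2, 468 members (8.41%) were lower, with 4.8% of all tested bins. Both lines were lower in 462 members (8.30%), with 4.7% of all tested bins and 20 highly methylated bins (0.418%). Opposite differences were few: line 1 was higher in 29 members (0.521%; 0.346% of all tested bins), line 2 in 16 (0.288%; 0.146%) and both in 14 (0.252%; 0.133%). Line 1 was lower than line 2 by 10 points in 507 members (9.11%; 5.78% of all tested bins) and lower than both other libraries in 502 (9.02%; 5.73%). Line 2 was lower than both other libraries in 0 members (0% of all tested bins). The parental library was thus set apart from both lines in 462 members by being higher, and line 1 from both others in 502 by being lower. The member share also rests on the choice of bins, because a bin that is lower in both lines more easily falls under 55% as a mean of 3. With members chosen on the parental library alone, 212 (4.36%) were lower in both lines, and 4.70% of all tested bins were.

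For single CpGs, methylated and unmethylated reads of a pair of libraries were compared by Fisher's exact test (two-sided), with Benjamini-Hochberg adjustment over all 2204675 autosomal CpGs. A CpG was called where the levels lay 25 points or more apart and the adjusted p was below 0.05. These tests compare libraries, not conditions. Members held 3493 sparse-window CpGs that were lower in both lines (1.29% of those tested there) and 3357 in dense windows (0.829%), with 0.605% over all CpGs. In highly methylated bins the shares were 0.261% and 0.157%. In line 1 alone, 9.15% of the sparse-window CpGs of members were lower (4.48% of all CpGs) and 0.815% were higher (0.601%). In line 2, 1.49% were lower (0.718%) and 0.112% were higher (0.0838%). Both lines were higher at 223 sparse-window CpGs of members (0.0824%; 0.0585% of all CpGs). Sparse windows of members held 26.2% and their dense windows 25.2% of all CpGs called lower in both lines. Calls depend on depth and on the starting level, since a CpG at a low parental level cannot fall by 25 points.

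CpG-dense windows, which the rule left out, were then examined in the same bins. CpG-dense stretches near promoters usually carry almost no methylation or, when silenced, nearly full methylation. In members, 16066 windows of 1 kb with 10 or more CpGs had a mean level of 37.1% in parental cells, 31.1% in line 1 and 33.7% in line 2. Highly methylated bins had 13847 such windows with 45.3%, 44.0% and 44.6%. Bins from 55% to 75% had 36.8%, 34.3% and 35.5%, so their parental mean was close to that of members. The main contrast was in the middle of the range: 52.3% of the dense windows of members had a parental level of 20% to 80%, as against 12.8% in highly methylated bins. Of the member windows, 36.7% lay below 20% and 11.04% above 80%, whereas highly methylated bins had 47.1% and 40.1%. Line 1 was lower than parental by 25 points or more in 327 dense windows of members (2.04%; 1.55% of all dense windows in tested bins) and higher in 24 (0.149%; 0.279%). Line 2 was lower in 29 (0.181%; 0.17%) and higher in 5 (0.0311%; 0.0501%). The shares for lower windows in members were close to those in bins from 55% to 75%, which had 1.67% in line 1 and 0.193% in line 2.

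**Figure D2:**
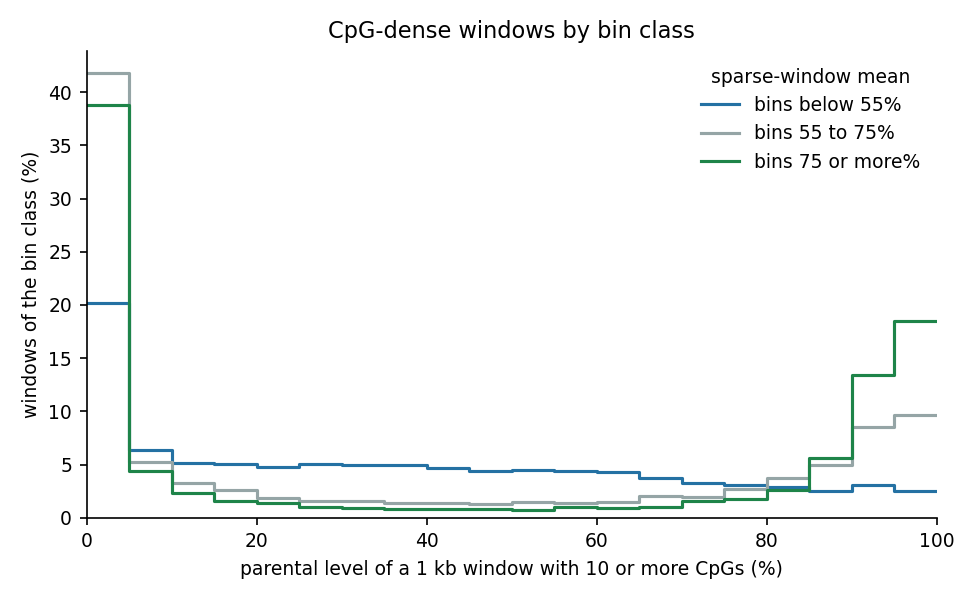
Share of 1 kb windows with 10 or more CpGs (percent of the windows of each bin class) by their parental methylation level in 5-point steps, for bins below 55%, from 55% to 75% and at 75% or more. Windows of the highly methylated bins gathered at both ends, and 52.3% of those in members lay between 20% and 80%.

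The intermediate levels were present at every CpG density examined. Among windows of 10 to 14 CpGs, 59.97% of those in members and 18.5% of those in highly methylated bins lay between 20% and 80% in parental cells. Among windows of 50 or more CpGs, the shares were 31.9% and 4.82%. The mean level of the densest windows was 23.7% in members and 13.6% in highly methylated bins in parental cells, so that at high CpG density the order of the classes was the reverse of that in sparse windows. The mean level of dense windows hardly followed that of the sparse CpGs around them: it was 34.6% in members below 15% and 37.1% in members from 45% to 55%. What differed was the spread, with 2.74% of dense windows above 80% in the former and 19.4% in the latter.

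Spacing between CpGs went with their level. In members, sparse-window CpGs with another CpG 2 to 5 bases away had a mean level of 46.3% in parental cells, 38.5% in line 1 and 42.0% in line 2. CpGs whose nearest neighbour was 71 to 150 bases away had 32.3%, 24.1% and 28.4%. In highly methylated bins the parental levels over the same distances went from 86.2% to 82.3%. The number of CpGs per window made less difference, with parental levels of 36.6% in windows of 1 CpG and 37.3% in windows of 9 CpGs in members. In members the difference of line 1 from parental was similar across spacings, at -7.88 points for the closest and -8.24 points for the most distant CpGs in line 1. In highly methylated bins it went from -1.29 to -3.12 points.

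Flanking bases could be read where a RefSeq promoter was placed on the data. In members, 1741 sparse-window CpGs with C or G on both sides had a mean level of 34.2% in parental cells, 27.3% in line 1 and 30.8% in line 2. With A or T on 1 side (2329 CpGs) the levels were 31.2%, 22.7% and 27.0%, and with A or T on both sides (909 CpGs) they were 24.2%, 16.8% and 20.5%. Highly methylated bins showed no such order in parental cells, at 71.7%, 75.9% and 73.6%. Among member CpGs with no neighbour within 20 bases, the parental level went from 34.7% with no A or T beside the CpG to 21.1% with A or T on both sides. Dense-window CpGs of members did not show it either (14.4%, 15.5% and 15.03%). These CpGs lie within 300 bases around gene starts and need not stand for the rest of a bin.

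**Figure D3:**
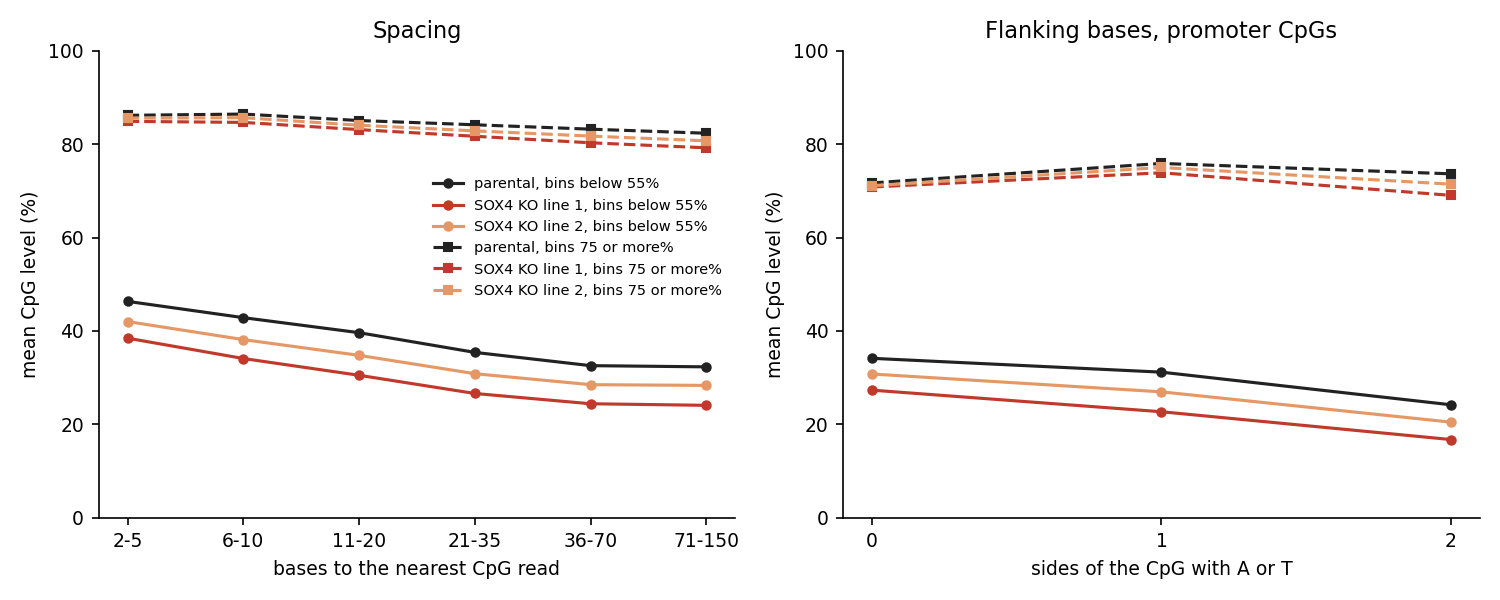
Left, mean level (percent) of sparse-window CpGs by the distance in bases to the nearest CpG read, in bins below 55% (circles, solid lines) and at 75% or more (squares, dashed lines) for each library. Right, mean level of sparse-window CpGs in placed promoters by the number of sides with A or T. In members the parental level went from 46.3% to 32.3% with distance and from 34.2% to 24.2% with A or T.

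Members lay next to each other. The 5564 members formed 2732 runs of adjacent bins, of which 1558 were single bins, 226 held 5 or more bins and 27 held 10 or more. The longest run had 18 bins. Highly methylated bins formed 2836 runs with a longest run of 12, and runs of 5 or more held 27.9% of members and 12.1% of highly methylated bins. An untested bin ended a run here. When untested bins were bridged, 189 stretches of members reached 1 Mb or more and the longest spanned 4.8 Mb, as against 37 and 2.1 Mb for highly methylated bins. Only 15 of the 48 bins of that longest stretch were tested, and 7 of 21 in the highly methylated one, so most of their length had no level. Of the tested bins directly beside a member, 65.5% were members and 13.1% were highly methylated. At a distance of 1 Mb these shares were 42.7% and 28.3%, close to the values at 5 Mb (40.3% and 29.3%).

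The longest run lay at chr5:1600001-3400000. Its 18 bins had a mean level of 28.5% in parental cells (8.92% to 43.9% over bins), 20.3% in line 1 and 23.8% in line 2. Promoters of NDUFS6, a subunit of mitochondrial complex I, and of IRX4, an Iroquois homeobox transcription factor, were placed in it. The NDUFS6 promoter (chr5:1801271-1801570) was at 1.05%, 0.31% and 0.68% over 30 CpGs, so it was nearly unmethylated inside a stretch of reduced methylation. The IRX4 promoter at chr5:1882990-1883289 had 40.7%, 40.6% and 42.0% over 36 CpGs, so that neither line was clearly lower, and another IRX4 promoter (chr5:1887244-1887543) had 72.4%, 68.9% and 67.2% over 17 CpGs. The 106 dense windows of the run had 42.5%, 33.2% and 36.8%.

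The second run, 17 bins at chr22:48400001-50100000, had 22.02% in parental cells, 16.04% in line 1 and 18.2% in line 2. No protein-coding promoter was placed in it, and TAFA5, a gene for a secreted brain protein, lies between placed genes of the run in RefSeq order. It was followed by bins at 65.4%, 89.7% and 81.8% in parental cells. The bins of this run differed little in level, with 10.9% to 34.0% in parental cells.

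The third run, 16 bins at chr1:151900001-153500000, covers the epidermal differentiation complex, a cluster of genes for proteins of the outer skin layer. It was the emptiest of the 5, with 19.5% in parental cells, 14.3% in line 1 and 16.3% in line 2. Single bins went from 56.3% at the edge to 6.05% in parental cells. Of the late cornified envelope (LCE) genes, 3 were placed in the run and 15 lay between placed genes, as did 9 small proline-rich protein (SPRR) genes, FLG, IVL and LORICRIN. The promoter of S100A11, a calcium-binding protein, had 6.16%, 7.03% and 4.67% over 22 CpGs (chr1:152009431-152009730). LCE genes are close copies of each other, so reads could be split between them. Line 1 had 1.31 times the parental share of reads in this run and line 2 had 1.13 times, and the part of this in the levels was not tested.

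The fourth run, 16 bins at chr2:400001-2000000, had 30.3% in parental cells, 21.8% in line 1 and 25.2% in line 2. TMEM18, a nuclear membrane protein gene, had a promoter (chr2:677357-677656) at 0.181%, 0% and 0.0433%. The dense windows of this run were the most methylated of the 5 runs, with 50.8%, 39.3% and 44.4%. The promoters of LINC01115 (85.7%, 76.3% and 79.3% over 40 CpGs) and LOC107985838 (82.4%, 72.6% and 74.2% over 24 CpGs) stood far above the sparse CpGs around them.

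The fifth run, 16 bins at chr19:50900001-52500000, was rich in genes. Its mean level was 34.7% in parental cells, 26.4% in line 1 and 30.1% in line 2. It held 29 placed protein-coding genes, among them 6 kallikrein-related peptidase (KLK) genes, 6 SIGLEC genes, which encode sialic acid receptors of immune cells, and 4 zinc finger (ZNF) genes. The KLK7 promoter at chr19:51487124-51487423 had 21.7%, 15.6% and 20.1% over 16 CpGs. The SIGLEC7 promoter (chr19:51645466-51645765) had 19.7%, 9.02% and 13.1% over 8 CpGs. The KLK13 promoter at chr19:51568127-51568426 was lower, at 6.35%, 3.10% and 4.35% over 16 CpGs, and the SIGLEC9 promoter at chr19:51627913-51628212 had 5.97%, 6.94% and 6.85% over 9 CpGs. Levels thus differed within both families. The promoters of ZNF175 (0.229%, 0.268% and 0.228%), ZNF613 (0.0937%, 0.227% and 0.109%) and ZNF350 (0.0606%, 1.04% and 0.394%) were nearly unmethylated, and that of ZNF577 had 13.3%, 3.90% and 5.87%.

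The ETFB gene, for a subunit of the electron transfer flavoprotein, was an exception in this run. Over 8 CpGs of its promoter at chr19:51858047-51858346 the level was 6.55% in parental cells, 60.3% in line 1 and 26.2% in line 2. Its other placed promoter (chr19:51869593-51869892) stayed at 1.16%, 2.25% and 0.426%. The higher level in the lines was thus limited to 1 of the placed promoters of this gene.

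**Figure D4:**
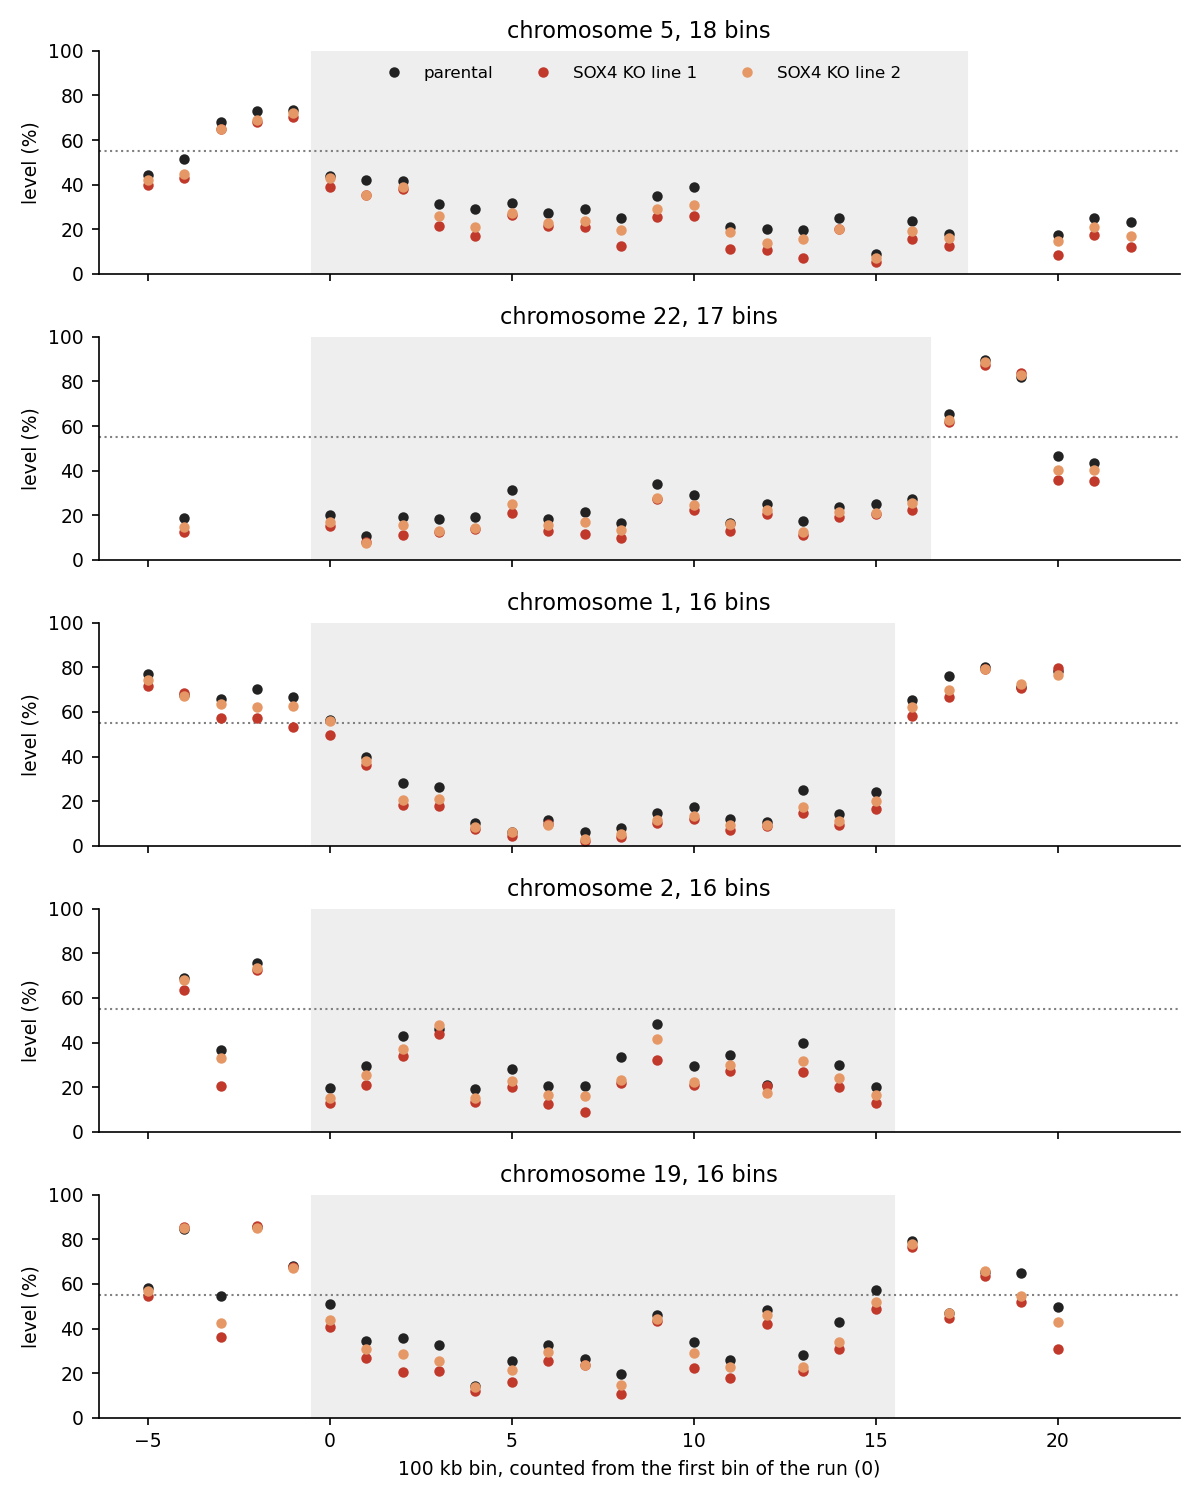
Mean level (percent) of each tested 100 kb bin in the 5 longest runs of members (grey) and up to 5 bins on either side, in the parental library and both knockout lines. The dotted line marks 55%, and untested bins have no point. The parental level in the chromosome 1 run went from 56.3% to 6.05%.

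Averaged over boundaries, level was higher at the edge of a member than further inside it. At 1134 places a member touched a highly methylated bin. In the 10 kb of the member nearest the boundary, the mean level was 56.7% in parental cells, 50.8% in line 1 and 53.6% in line 2. At 60 to 70 kb from it the levels were 41.7%, 32.3% and 37.2%. On the other side, the first 10 kb had 78.8% in parental cells and the stretch at 60 to 70 kb had 85.5%. The step at the boundary is partly set by the choice of bins on a fixed grid. The slope inside the member is an average over boundaries, and a change in level can fall anywhere within a fixed bin. It therefore cannot show whether level changes gradually or sharply in a single member. The difference between line 1 and parental went from -9.31 points at 60 to 70 kb inside the member to -5.89 points at its edge, and from -3.99 to -2.30 points over the same distances in the highly methylated bin. The bins one step further on had parental means of 53.1% beyond the member and 72.5% beyond the highly methylated bin.

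**Figure D5:**
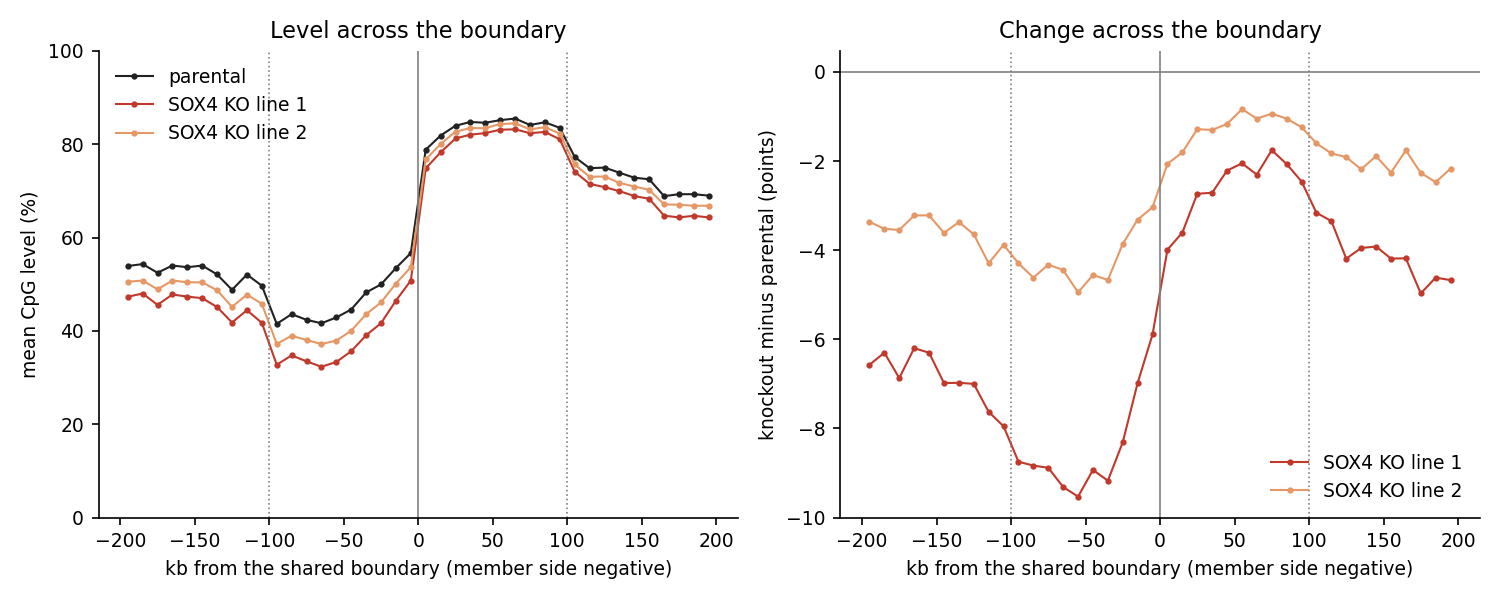
Left, mean level (percent) of sparse-window CpGs in 10 kb steps around the 1134 boundaries between a member (negative distances, kb) and a highly methylated bin. Right, difference of each knockout line from parental in percentage points. Dotted lines mark the bin ends, beyond which bins of any class entered; line 1 differed by -9.31 points at 60 to 70 kb inside the member.

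Members were found on every autosome. Their share of the tested bins ran from 28.8% on chromosome 6 to 52.2% on chromosome 20, with a median of 37.7%. Chromosomes 19 (47.8%) and 11 (46.8%) followed chromosome 20. The parental level of members was lowest on chromosome 20 (31.5%) and highest on chromosome 6 (40.7%). Members were also more frequent toward the ends of the long arms, at 43.8% of tested bins within 2 Mb of the last CpG read, 50.3% at 2 to 5 Mb and 35.1% beyond 50 Mb.

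On every autosome the members of both lines had a lower mean than those of the parental library. Line 1 minus parental ran from -11.37 points on chromosome 21 to -6.21 points on chromosome 22, and line 2 minus parental from -5.68 points on chromosome 6 to -3.38 points on chromosome 22. The share of members lower by 10 points in both lines was highest on chromosome 6 (13.1%) and lowest on chromosome 22 (1.65%). Read shares differed between the libraries on some chromosomes. Relative to the median chromosome, line 1 had 1.34 times the parental share of reads on chromosome 11 and 0.781 times on chromosome 21, and line 2 had 1.15 and 0.893 times. Chromosome 6 had 1.00 times in both lines and a difference of -11.34 points in line 1. Members were also split by the share of a bin's reads in line 1 relative to parental. Below 0.9 times (1025 members) line 1 differed by -8.12 points and line 2 by -3.85 points, at 0.9 to 1.1 times (3298) by -8.93 and -4.61 points, and above 1.1 times (1241) by -9.63 and -5.21 points. The part of read share in the differences was not tested. Median depth per usable CpG in members was 34.0 reads in parental cells, 31.2 in line 1 and 42.6 in line 2, close to the values in highly methylated bins (33.7, 30.3 and 41.3).

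In the members with the lowest mean, the sparse-window CpGs were almost free of methylation. The lowest member, chr11:131600001-131700000, had 3.71% in parental cells, 0.63% in line 1 and 1.66% in line 2 over 25 CpGs. Its 1 dense window was higher, at 29.9%, 21.4% and 19.7%. The other 4 lowest bins had 1.53% to 4.09% in parental cells over 20 to 23 CpGs, and no promoter was placed in any of the 5. All 5 lay near the minimum number of CpGs, and the differences of the lines from parental were between -3.57 and 2.61 points.

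The 5 members furthest below parental in both lines had 71.4% to 83.7% in parental cells. The bin chr20:51100001-51200000, which holds the LOC124904931 promoter whose CpGs are printed above, had 83.7% in parental cells, 26.2% in line 1 and 47.7% in line 2 over 20 CpGs. The bin chr21:15800001-15900000 had 73.0%, 15.6% and 44.9% over 24 CpGs. The bin chr15:50100001-50200000 had 78.8%, 25.8% and 51.0% over 43 CpGs, and chr6:130700001-130800000 had 71.4%, 14.3% and 45.02% over 27 CpGs. In all of these line 2 lay between line 1 and parental. Each was far above 55% in parental cells and was a member through the knockout lines.

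The bin chr1:217200001-217300000 was also among these 5, with 78.0%, 27.0% and 50.7% over 35 CpGs. It holds a promoter of ESRRG, an orphan nuclear receptor. Over its 16 CpGs (chr1:217263117-217263416, minus strand) the level was 68.0% in parental cells, 34.0% in line 1 and 53.6% in line 2. A promoter of this gene placed outside the bin was unmethylated in all libraries (0% to 0.766% over 9 CpGs). Both lines had 1.48 to 1.49 times the parental share of reads in the bin, and the part of this in the difference was not tested.

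The 5 members furthest above parental in both lines lay on chromosomes 10 and 4. The bin chr10:127900001-128000000 had 17.3% in parental cells, 58.8% in line 1 and 45.5% in line 2 over 33 CpGs, and chr10:128100001-128200000 had 30.1%, 76.5% and 55.2% over 26 CpGs. The bin chr4:6400001-6500000 had 21.9%, 65.7% and 43.1% over 112 CpGs, while its 3 dense windows stayed at 11.02%, 9.52% and 10.1%. The last 2 of the 5 were neighbours, with 29.6%, 66.0% and 50.2% at chr4:41500001-41600000 and 37.4%, 62.2% and 54.8% at chr4:41400001-41500000. Line 1 was above line 2 in all 5 bins.

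CpGs of the second of these bins are shown because they lie upstream of the start of LOC105378549, a long noncoding RNA gene, on the plus strand. The capitals mark the CpG that was read, and all 3 have A or T on both sides.
LOC105378549, CpG 1: cttaagggatCGtgacataagc
LOC105378549, CpG 2: gggtcatcaaCGtaacctgtcc
LOC105378549, CpG 3: gcccacaggtCGagggcaccca

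The first CpG (chr10:128185331-128185352) had 6.98% in parental cells, 89.5% in line 1 and 33.3% in line 2. The second (chr10:128185365-128185386) had 7.14%, 94.7% and 42.9%, and the third (chr10:128185395-128185416) had 2.63%, 31.25% and 20%. Line 1 rested on 16 to 19 reads per CpG here. All 3 CpGs were lowest in parental cells and highest in line 1, the reverse of the order at LOC124904931.

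Members held fewer placed protein-coding genes than their share of the bins, but not fewer long noncoding RNA genes. Of 8652 protein-coding genes placed in tested bins, 2246 (26.0%) lay in members, while members made up 36.97% of these bins. That is 0.404 placed genes per member, 0.770 per bin from 55% to 75% and 0.583 per highly methylated bin. Of 2884 placed long noncoding RNA genes, 1083 (37.6%) lay in members. Their number was 0.195 per member, between 0.227 per bin from 55% to 75% and 0.154 per highly methylated bin. Placement needs a promoter with enough CpGs, so genes with CpG-poor promoters are under-represented. Of 1385 CpG-dense protein-coding promoters in members, 76.2% were below 20% in parental cells, as against 91.7% of 2243 in highly methylated bins. Their mean level was 14.5%, 12.02% and 13.1% in members and 7.32%, 6.86% and 7.01% in highly methylated bins. Long noncoding RNA promoters in members had 25.1%, 20.7% and 22.5%.

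Of the dense promoters in members, counted once per gene, 3 of 1943 (0.154%) were lower by 25 points or more in both lines, and 0.161% of all dense promoters in tested bins were, so the share in members was that of the background. EDNRA, the gene for endothelin receptor A (chr4:148401999-148402298), had 69.1% in parental cells, 18.5% in line 1 and 34.9% in line 2 over 8 CpGs. CSNK2A3, a gene of the casein kinase 2 alpha family (chr11:11374748-11375047), had 56.0%, 7.94% and 29.9% over 5 CpGs. LINC02181 (chr16:87091140-87091439) had 74.5%, 39.5% and 46.0% over 8 CpGs. No dense promoter in members, counted in this way, was higher by 25 points in both lines (0.0247% of all dense promoters).

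Liver genes were not absent from members. ALB, which encodes serum albumin, lay in a member that was higher in both lines, at 45.8% in parental cells, 56.8% in line 1 and 51.5% in line 2. FGG, which encodes the fibrinogen gamma chain, lay in a member at 34.4%, 30.4% and 33.8%. Of 5 placed liver plasma protein and enzyme genes, these 2 were in members and AMBP, SERPINA1 and TF in bins from 55% to 75%. Among all protein-coding genes placed in tested bins, 26.0% lay in members, and the lists are short. Another 8 genes of this list were located only between placed neighbours. Of these, 0 had members alone, 1 had highly methylated bins alone and 7 had a mix. Of 3 placed liver transcription factor genes, 0 were in members. TBP, which encodes the TATA-binding protein, was the only 1 of 7 placed housekeeping genes in a member (35.8%, 35.96% and 36.9%), and its promoter was at 1.02%, 5.10% and 0%. None of the 4 placed genes that the study followed lay in a member.

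The olfactory receptor and keratin lists were taken by symbol, and 3 entries of the former and 4 of the latter are antisense or overlapping transcripts. Of 12 olfactory receptor genes that could be placed, 6 lay in members, 2 in bins from 55% to 75% and 4 in bins that could not be judged. Of 7 placed keratin genes, 4 lay in members, among them KRT5, which encodes a keratin of basal epithelial cells (21.02% in parental cells, 11.1% in line 1 and 14.8% in line 2), and 3 in bins from 55% to 75%. The share in members among all protein-coding genes placed in tested bins was 26.0%. Most genes of the olfactory receptor and keratin families were located only between placed neighbours in RefSeq order. Of 284 olfactory receptor genes located in this way, 86 lay between neighbours with members alone, 12 with bins from 55% to 75% alone, 0 with highly methylated bins alone and 186 with a mix. For 31 keratin genes the numbers were 11, 1, 0 and 19. Over all 5275 protein-coding genes located in this way, 15.7% had members alone and 8.28% had highly methylated bins alone. These genes sit in clusters, and the 86 olfactory receptor genes shared 16 intervals and the 11 keratin genes 2, so they are far fewer independent positions. Of 11 placed neuronal adhesion and receptor genes, 10 lay in bins with too few usable CpGs to be judged, and NRXN3, which encodes a synaptic adhesion protein, lay in a member (24.6%, 17.3% and 18.3%).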

How the data were processed

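Methylation was measured by bisulfite capture sequencing in 1 parental and 2 knockout libraries. The deposited files give, for each cytosine of a CpG, raw counts of all reads, of reads supporting the CpG context and of methylated reads, and a methylation level that the authors computed as a fraction of methylated over context reads. Aligner, caller, filters and duplicate removal were not given in the sources used here. The 2 strands of a CpG were summed; levels are percentages, and a bin level is the mean over its CpGs. Counting errors are binomial and do not cover PCR copies. Fisher exact tests ran over all autosomal CpGs compared.

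No genome of the build of the files was used. Promoters of RefSeq GRCh38.p14 (300 bases) were placed on the deposited positions by matching the spacing of their CpGs, a method chosen after seeing the data: 11559 by 80% or more of at least 8 CpGs, of which 99.9% fell on their RefSeq chromosome, and 4445 more between placed neighbours. Mirror images of those searched in the second step gave 49 placements. Sequences may differ from GRCh37 by single bases. Regions named are the 5 longest runs, the 5 lowest members and the 5 members furthest below and above parental in both lines; promoters named were those placed in them, those lower in both lines, and the gene lists. Members and lists were chosen with earlier results of these data known. Alternatives covered coverage, window density, CpGs per bin, the thresholds, bin offset, weighting, thinning, choice by the parental library and leaving out a line. Computations used scipy 1.17.1 and numpy 2.4.6 under Python 3.11.15, with pandas 2.3.3, numba 0.67.0 and matplotlib 3.10.9, and the Fisher tests were first run on simulated data.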

Additional observations from a re-analysis of the deposited data

How the results depend on the processing

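Of 74 values recomputed under another setting, 57 stayed within a set tolerance, 17 moved beyond it and 0 changed sign. For mean differences the tolerance was the SD of the knockout lines, 3.06 points. This is wide beside the difference of line 2, so that -2.70 points still counted as unmoved. Counts were judged by a fixed ratio, and counts and levels could not change sign. The mean difference of members from parental stayed negative throughout, at -9.49 to -5.16 points in line 1 and -4.82 to -2.70 points in line 2. It was smallest in both lines when dense windows entered, at -5.16 points in line 1 and -2.70 points in line 2. The number of members moved to 11922 with dense windows included, to 2135 with 50 or more CpGs per bin, and to 2692 with a read dosage of 0.9 to 1.1 in both lines, a setting chosen after seeing the data. The count of members lower by 10 points in both lines was the least stable value. It was 2149 at 5 points, 41 at 20 points, 834 with 10 or more CpGs per bin, 92 with 50 or more, 285 at a coverage minimum of 20, 212 with members chosen by the parental library alone and 196 with the read dosage limit. CpGs of members called lower in both lines numbered 6850, with 952 at 50 points and 3331 after thinning. The mean level of dense windows in parental cells moved from 37.1% to 32.9% at a coverage minimum of 20 and to 32.5% for windows of 20 or more CpGs. Leaving out each knockout line from the choice of members gave 5190 to 5571 members. The differences were then -8.98 to -8.16 points (line 1) and -4.57 to -4.28 points (line 2). In the remaining line alone, 341 to 1856 members were lower by 10 points and 7326 to 47902 CpGs were called lower. The higher counts came without line 2. These counts need only 1 line to be lower, so they are not the same measure as the counts for both lines. No paired analysis was possible because parental cells gave a single library. Bins need 20 usable CpGs, so CpG-poor stretches are missing from the set, and single CpGs at 20 to 40 reads carry wide counting errors.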

Other observations

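Bins with too few sparse-window CpGs to be judged were not part of the comparison. In 10703 such bins, 99731 CpGs had a mean level of 59.9% in parental cells, 50.9% in line 1 and 55.4% in line 2. The sequence around a CpG was known for 909 sparse-window CpGs of members with A or T on both sides, where line 1 differed from parental by -7.44 points and line 2 by -3.72 points, and for 484 in highly methylated bins, where the differences were -4.61 and -2.22 points.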
